A study of Mus musculus with 24 samples.

Results

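Cholesterol synthesis, uptake and efflux genes were followed through RNA sequencing of the aged mouse hippocampus and of its isolated microglia. The 35 genes were taken by symbol from the 24411 genes listed in each of the 3 deposited tables, and all 35 were found in every table. They comprised 18 enzymes of synthesis, 5 regulators of the SREBP pathway, 2 genes of lipoprotein uptake, 4 genes of efflux and its nuclear receptors, 4 genes of storage, oxidation and turnover, and 2 transfer proteins. The rule that chose them used no measured value, but the list was drawn up with earlier results of these data known.

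All mice were aged C57/Bl6 males of 20 months, and the labels name no transgene or deletion in any group. Whole hippocampi came from mice given saline (n = 5), the blood plasma preparation of young mice (n = 6) or the platelet fraction of young mice (n = 6), and donors were 3 months old. Microglia came from the hippocampi of mice given saline (n = 3) or recombinant platelet factor 4 (PF4, n = 4), a chemokine that platelets release. Treatments were given as 8 intravenous injections of 100 µl over 24 days, PF4 at 5 µg/ml. Microglia were captured with CD11b microbeads after tissue dissociation and myelin removal, and the study's own account counts these libraries as mice.

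The adult brain makes nearly all of its own cholesterol, because the blood-brain barrier keeps out plasma lipoproteins. Acetyl-CoA is carried through mevalonate to squalene, squalene is closed into lanosterol, and the sterol ring is then trimmed to cholesterol. When membrane sterol falls, SCAP escorts SREBP to the Golgi and the released factor raises transcription of the synthesis enzymes, and INSIG proteins hold the pair back. Astrocytes pass cholesterol to other cells through ABCA1 and ABCG1 under liver X receptors, oligodendrocytes use much of it for myelin, and neurons discard it as 24-hydroxycholesterol made by CYP46A1.

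Promoter sequences are shown for 4 members on which the results below turn, as the 250 bases before a RefSeq transcription start on GRCm38.p6, read 5′ to 3′ on the strand of the gene. None of these windows overlapped an exon of the GENCODE vM21 annotation, but the longer RefSeq extents of the genes cover 73 of the 250 bases for Insig2, 93 for Abca1 and all 250 for Cyp27a1. Hmgcs1, whose enzyme makes HMG-CoA for the mevalonate pathway, is shown because it had the highest normalized count of the members in hippocampus (chr13:119690101-119690350, plus strand). Insig2, which holds SCAP in the endoplasmic reticulum, and Abca1, which exports cholesterol to lipid-poor apolipoproteins, are shown because they differed in opposite directions in 5 hippocampi that stood apart (Insig2 at chr1:121332590-121332839, minus strand, before the most upstream of the 3 starts in the RefSeq promoter table; Abca1 at chr4:53159896-53160145, minus strand). Cyp27a1, the mitochondrial sterol 27-hydroxylase, is shown because it was the only member that passed the threshold in a comparison of treatments (chr1:74713285-74713534, plus strand). Capitals mark the motifs searched, on either strand.
Hmgcs1: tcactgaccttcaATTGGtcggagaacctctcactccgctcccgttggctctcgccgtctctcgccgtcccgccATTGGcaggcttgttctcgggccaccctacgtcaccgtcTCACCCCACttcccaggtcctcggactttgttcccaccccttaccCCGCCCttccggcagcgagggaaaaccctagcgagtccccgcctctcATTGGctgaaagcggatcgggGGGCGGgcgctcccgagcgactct
Insig2: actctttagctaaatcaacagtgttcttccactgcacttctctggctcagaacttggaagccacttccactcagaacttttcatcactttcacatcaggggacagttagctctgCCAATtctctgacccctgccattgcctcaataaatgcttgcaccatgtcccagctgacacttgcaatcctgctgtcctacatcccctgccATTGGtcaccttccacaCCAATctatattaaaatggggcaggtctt
Abca1: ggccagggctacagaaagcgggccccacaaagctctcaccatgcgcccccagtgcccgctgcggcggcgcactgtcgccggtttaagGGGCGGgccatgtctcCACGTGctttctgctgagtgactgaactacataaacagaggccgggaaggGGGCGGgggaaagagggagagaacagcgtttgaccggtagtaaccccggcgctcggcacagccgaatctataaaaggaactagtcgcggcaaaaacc
Cyp27a1: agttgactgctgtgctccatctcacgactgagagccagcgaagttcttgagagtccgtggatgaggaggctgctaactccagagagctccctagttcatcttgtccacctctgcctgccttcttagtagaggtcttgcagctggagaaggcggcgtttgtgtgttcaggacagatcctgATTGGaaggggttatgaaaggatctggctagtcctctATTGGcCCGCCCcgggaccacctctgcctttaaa

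The motifs were TCACCCCAC and TCACGCCAC, which are sterol regulatory element letters, CCAAT for NF-Y, GGGCGG for Sp1 and CACGTG, the E-box. RefSeq promoters were matched for 30 of the 35 members, giving 39 promoters, and shares were set beside all 32851 promoters of the same length. TCACCCCAC was found in 1 member promoter, that of Hmgcs1, against 0.496% of all promoters, and TCACGCCAC in 0 member promoters against 0.103% of all. CCAAT lay in 25 of the 39 member promoters (64.1%, against 33.8% of all) and GGGCGG in 28 (71.8%, against 32.7%). CACGTG lay in 6 (15.4%, against 6.02%), those of Abca1, Dhcr7, Hsd17b7, Insig1, Sc5d and Scap. The printed Hmgcs1 promoter held the sterol element beginning 137 bases before the start, together with 3 CCAAT and 2 GGGCGG matches. The Abca1 promoter held the E-box beginning 147 bases before the start and 2 GGGCGG matches, whereas the Insig2 window held 3 CCAAT matches and none of the other motifs. The Cyp27a1 promoter held 2 CCAAT matches within its last 71 bases and 1 GGGCGG match. The motifs did not overlap one another in these windows, and a match here is a description of letters, not of binding.

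Hippocampal libraries held 6140510 to 10522699 counted reads and microglia libraries 19855188 to 36342162. Reads carried no molecular identifiers, so counting limits given here cover counting error only. All 8 neuronal markers were at 10 or more in every hippocampal library (summed level 46862 to 61106 normalized counts), and the 8 microglial markers summed to at least 794652 in every microglia library, where neuronal markers summed to 207 to 1034. Normalized counts are read counts scaled by the size factor of each library. In 5 hippocampi, saline mice 7146 and 7152, young plasma mice 7147 and 7150 and young platelet mouse 7148, the first principal component of the 13871 other genes (25.2% of variance) was negative, and in the other 12 it was positive. In microglia, summed choroid plexus markers reached 273853 in saline library 2, 702194 in PF4 library 2 and 504618 in PF4 library 4, against 912 to 1849 in the other 4 libraries.

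Saline hippocampus was described first, since it gives the untreated level of each gene. Levels of different genes were compared as reads per 1e6 counted reads (RPM) per kilobase of the longest coding transcript (GENCODE vM21). On that scale, Cyp46a1, which makes the sterol that neurons release, was highest at 116 ± 10.9 (SD, n = 5), followed by Fdps, the farnesyl diphosphate synthase, at 103 ± 8.1 and Hmgcs1 at 93.3 ± 8.5. Neighbours among these 3 genes overlapped within 1 SD, whereas Sqle, the squalene epoxidase and an oxygen-dependent step of the pathway, came next at 48.7 ± 7.4. Msmo1, a methylsterol oxidase, stood at 47.5 ± 10.4 and did not differ from Sqle beyond its spread. Abca1 was lowest of the 35 at 2.90 ± 0.79.

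The order differed in isolated microglia from saline-treated mice. Stard3, a late-endosomal sterol transfer protein, was highest at 160 ± 26.9 RPM per kilobase (SD, n = 3), followed by Mylip, the ubiquitin ligase that degrades lipoprotein receptors, at 95.4 ± 9.9. Abcg1, which exports cholesterol to HDL, followed at 71.1 ± 17.2 and Nr1h2, the liver X receptor beta, at 64.7 ± 17.0, so these 2 did not differ beyond their spread. The highest synthesis enzyme was Ebp, the sterol delta-isomerase, at 29.4 ± 8.0, although Mvd at 27.3 ± 7.4 and Acat2 at 24.5 ± 0.45 did not differ from it beyond its spread.

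**Figure D1:**
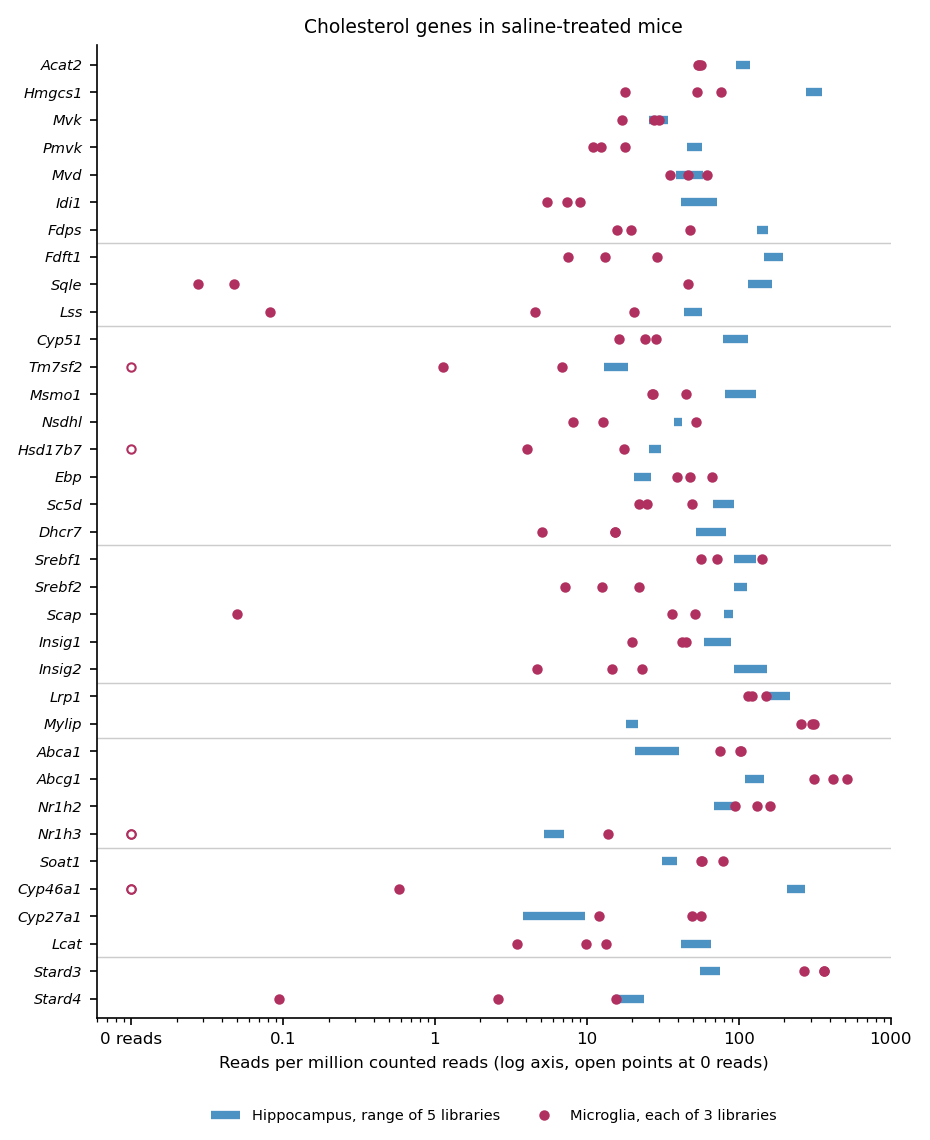
Level of each member in saline-treated mice, in RPM on a log axis; hippocampus is the range of 5 libraries and microglia are 3 single libraries, open where a library held 0 reads. Synthesis genes lie mostly lower in microglia, whereas Mylip, Stard3, Abca1 and Abcg1 lie above the hippocampal range.

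Between the 2 saline sources, the ranges of RPM did not overlap for 29 of 35 members (82.9%), against 64.1% of the 14181 genes compared. They were lower in microglia for 21 members, against 48.7% of all genes, and higher for 8, against 15.5%. Of the 18 synthesis enzymes, 14 were lower, 3 overlapped (Mvk, Mvd and Nsdhl) and only Ebp was higher. The 3 squalene steps were lower without exception, as were the regulators Srebf2, Scap, Insig1 and Insig2, although Insig1 overlapped when libraries were scaled by TMM. Fdft1, the squalene synthase, ranged from 147 to 196 RPM in hippocampus and stood at 29.2, 7.51 and 13.1 in the 3 microglia libraries. Hmgcs1 ranged from 276 to 354 in hippocampus and stood at 76.3, 52.8 and 17.8 in microglia. Every microglia library was thus below every hippocampus for both genes.

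Of the genes of efflux and its receptors, 3 were higher in microglia and 1, Nr1h3, overlapped. Nr1h3 stood at 0, 13.8 and 0 RPM in microglia against 5.21 to 7.09 in hippocampus. Srebf1 and Stard4 also overlapped. Abca1 stood at 102, 103 and 75.7 RPM in microglia against 20.7 to 40.4 in hippocampus, a ratio of means of 3.14. Abcg1 stood at 314, 514 and 416 against 109 to 147, a ratio of 3.22. Mylip stood at 258, 314 and 306 against 18.2 to 21.8, a ratio of 14.5 and the highest of the members. Soat1, which esterifies cholesterol for storage, was 1.85 times and Stard3 5.13 times the hippocampal mean. Cyp27a1 stood at 12.0, 56.5 and 49.6 against 3.82 to 9.77, so all microglia libraries were above all hippocampi, but they differed among themselves by more than the gap.

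Cyp46a1 showed the reverse. It ranged from 209 to 272 RPM in hippocampus, whereas 2 microglia libraries held 0 reads, which allows up to 0.151 and 0.143 RPM, and the third held 0.578. Sqle ranged from 116 to 166 in hippocampus and stood at 46.7, 0.0475 and 0.0275 in microglia, so 1 library carried nearly all of its microglial reads. That was saline library 2, in which summed choroid plexus markers reached 273853 normalized counts, and the source of its Sqle reads was not tested. Lrp1, an endocytic receptor for lipoproteins, was lower in microglia (115, 122 and 151 against 153 to 217), but its ranges overlapped with median-of-ratios and TMM scaling, and its mean was higher in microglia with TMM. The 2 sources differ in cell composition, dissociation and library set, which cannot be told apart, so no test was made. In whole tissue, fewer cells of a type and less RNA per cell also cannot be told apart.

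The young blood plasma preparation was compared with saline to ask whether the hippocampus of aged mice changed its cholesterol genes. Only Cyp27a1 passed the threshold (unadjusted P of 0.05, limma), and it was higher. This was 1 of 35 members, against 3.35% of the 13594 genes tested (1.85% higher and 1.51% lower). No member passed a Benjamini-Hochberg adjusted p of 0.05 over all genes, with limma, edgeR or DESeq2, each of which had 1 member at an unadjusted P under 0.05. Values were higher with plasma for 24 members (68.6%, against 47.3% of all genes) and lower for 11. The median log2 difference was 0.06, against -0.01 over all genes. The 95% interval of the difference lay within 1.5-fold in either direction for 31 of 35 members, against 62.5% of all genes, and this included all 18 synthesis enzymes. Members and all genes were not matched for level, here or in the comparisons below, and low counts widen such intervals.

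Among the mevalonate steps, Hmgcs1 stood at 2365, 2485, 2098, 2555 and 2397 normalized counts in saline mice. With plasma it ranged from 2085 to 2702, with a median of 2314, and the log2 difference was -0.03 (95% interval -0.21 to 0.14, P = 0.684 with limma, exact permutation p = 0.66). The groups overlapped almost wholly. Idi1, which isomerises isopentenyl diphosphate, had the smallest P of this step at 0.214. It stood at 321, 527, 398, 426 and 308 in saline mice and ranged from 275 to 402 with plasma (median 340, log2 difference -0.20, interval -0.52 to 0.13). The highest saline value, 527, belonged to mouse 7146, 1 of the 5 that stood apart. The remaining genes of these steps, Acat2, Mvk, Pmvk, Mvd and Fdps, differed by 0.08 to 0.16 on the log2 scale.

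Of the squalene steps, Lss, the lanosterol synthase, stood at 419, 359, 354, 314 and 377 in saline mice and ranged from 357 to 449 with plasma (median 371, log2 difference 0.10, interval -0.12 to 0.31, P = 0.352 with limma, exact permutation p = 0.303). Sqle stood at 849, 1212, 943, 1024 and 920 and ranged from 888 to 1221 with plasma (median 976, difference 0.06, interval -0.20 to 0.31). Neither gene separated the groups. Among the sterol ring steps, Nsdhl, a sterol dehydrogenase, stood between 276 and 309 in saline mice and between 268 and 394 with plasma, where 4 of 6 values were above all saline values (difference 0.12, interval -0.09 to 0.34, P = 0.235 with limma, exact permutation p = 0.19). Dhcr7, the 7-dehydrocholesterol reductase, stood between 379 and 624 in saline mice and between 397 and 736 with plasma (difference 0.14, interval -0.25 to 0.52). Fdft1 differed by 0.10, and Cyp51, Tm7sf2, Msmo1, Hsd17b7, Ebp and Sc5d by -0.07 to 0.10.

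Among the regulators, Srebf1, whose product favours fatty acid genes, stood at 953, 678, 835, 753 and 825 in saline mice. With plasma it ranged from 721 to 1077 (median 990), and 4 of 6 values were above all saline values. The log2 difference was 0.22 (interval -0.03 to 0.47, P = 0.081 with limma, exact permutation p = 0.106), the smallest P of any member after Cyp27a1. Srebf1 passed the threshold when saline mouse 7143 (0.28) or plasma mouse 7594 (0.29) was left out, and Mvk did so without plasma mouse 7159 (0.27). Srebf2, the main regulator of synthesis enzymes, stood between 676 and 862 in saline mice and between 804 and 955 with plasma (median 812, difference 0.10, interval -0.07 to 0.28). Its plasma values lay in the upper part of the saline range, with only 1 above it. Insig2 differed by -0.25 (interval -0.68 to 0.18), Scap by 0.02 and Insig1 by 0.06.

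For uptake, Lrp1 stood at 1590, 1115, 1273, 1136 and 1328 in saline mice and ranged from 1013 to 1526 with plasma (median 1230, difference -0.02, interval -0.28 to 0.24). For efflux, Abca1 stood at 242, 165, 158, 230 and 300 in saline mice and ranged from 149 to 318 with plasma (median 270, difference 0.14, interval -0.38 to 0.65). Abca1 had the widest interval of the members here, and its values fell into a low and a high set within each group. Nr1h3, the liver X receptor alpha, stood between 38.7 and 52.0 in saline mice and between 28.8 and 59.0 with plasma (difference -0.25, interval -0.70 to 0.20, P = 0.25 with limma, exact permutation p = 0.225). Stard4, a cytosolic sterol carrier, stood at 123, 174, 116, 121 and 118 in saline mice and between 86.6 and 148 with plasma (difference -0.14, interval -0.52 to 0.24). Cyp46a1 stood between 1512 and 1978 in saline mice and between 1509 and 2098 with plasma (difference -0.02, interval -0.24 to 0.20). Abcg1, Soat1, Lcat and Stard3 differed by 0.05 to 0.08, Nr1h2 by 0.12 and Mylip by 0.0012.

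**Figure D2:**
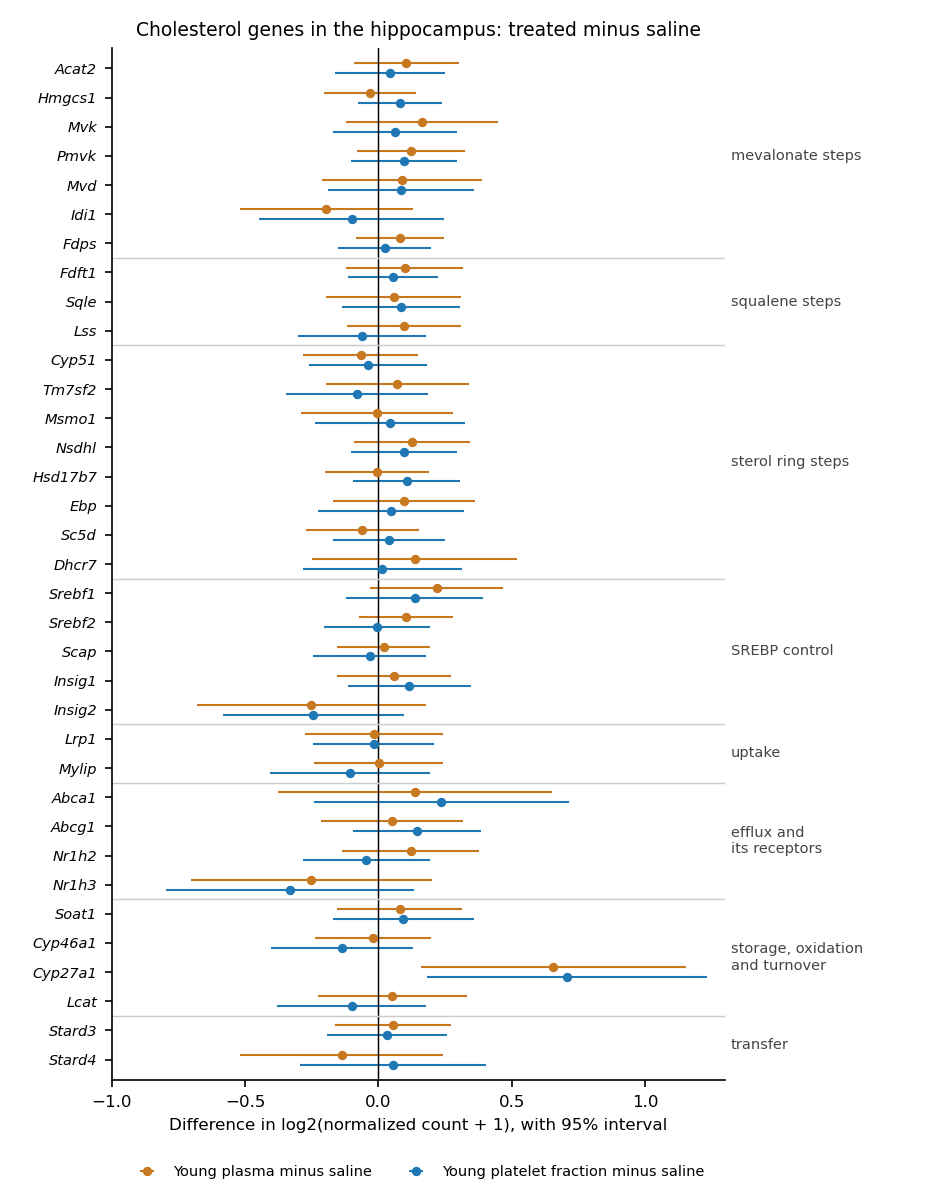
Log2 difference from saline of each of the 35 members in hippocampus, with 95% intervals from limma, for the young plasma preparation (orange) and the young platelet fraction (blue). Cyp27a1, at 0.66 and 0.71, is the member whose interval excludes 0 in both comparisons; the saline libraries are shared.

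The young platelet fraction was compared with the same saline mice, so the comparisons are not independent of each other. The saline values given above apply here, since the scales of the 2 tables differed by a factor of 0.993 to 0.996. Again only Cyp27a1 passed the threshold and was higher, 1 of 35 members against 3.87% of the 13603 genes tested (2.41% higher and 1.46% lower). No member passed the adjusted p with limma, edgeR or DESeq2, each of which had 1 member at an unadjusted P under 0.05. Values were higher for 22 members (62.9%, against 50.5% of all genes) and lower for 13, with a median log2 difference of 0.04, against 0.00 over all genes. The interval lay within 1.5-fold for 32 of 35 members, against 64.2% of all genes, and for all 18 synthesis enzymes.

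Hmgcs1 ranged from 2294 to 2726 normalized counts with the platelet fraction (median 2538), and 3 of 6 values were above all saline values. The log2 difference was 0.08 (interval -0.08 to 0.24, P = 0.291 with limma, exact permutation p = 0.245). Sqle ranged from 937 to 1258 (median 1013, difference 0.08, interval -0.13 to 0.30, P = 0.421 with limma, exact permutation p = 0.435). Both genes overlapped saline. Hsd17b7, a ketosteroid reductase of the sterol ring, stood between 198 and 226 in saline mice and between 198 and 258 with the platelet fraction, with 4 of 6 values above saline (difference 0.11, interval -0.10 to 0.31). Dhcr7 differed by 0.01 (interval -0.28 to 0.31), and the remaining 14 synthesis enzymes by -0.10 for Idi1 to 0.10 for Nsdhl.

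Insig2 stood at 683, 1118, 979, 777 and 691 in saline mice and ranged from 611 to 1033 with the platelet fraction (median 662). Of the 6 platelet values, 4 were below all saline values and 1, at 1033 in mouse 7148, was near the top of the saline range. The log2 difference was -0.24 (interval -0.58 to 0.09, P = 0.144 with limma, exact permutation p = 0.186). Without mouse 7148, Insig2 passed the threshold at -0.35, as did Abca1 at 0.41. Srebf2 ranged from 685 to 909 (median 755) and differed by -0.0046 (interval -0.20 to 0.19). Srebf1 differed by 0.14, Insig1 by 0.12 and Scap by -0.03.

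Mylip stood at 136, 158, 166, 131 and 151 in saline mice and ranged from 112 to 172 with the platelet fraction (median 138, difference -0.11, interval -0.41 to 0.19). Lrp1 ranged from 1128 to 1463 (median 1273, difference -0.02, interval -0.24 to 0.21). Neither gene of uptake separated the groups. Abca1 ranged from 138 to 329 (median 275, difference 0.24, interval -0.24 to 0.71) and Nr1h3 from 23.9 to 54.5 (median 36.5, difference -0.33, interval -0.80 to 0.13, P = 0.148 with limma, exact permutation p = 0.162). Cyp46a1 ranged from 1349 to 2160, with 3 of 6 values below all saline values (difference -0.14, interval -0.40 to 0.13). Stard4 ranged from 92.7 to 159 (median 143, difference 0.05, interval -0.29 to 0.40). Abcg1 differed by 0.14, Soat1 by 0.09, Stard3 by 0.03, Nr1h2 by -0.05 and Lcat by -0.10.

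**Figure D3:**
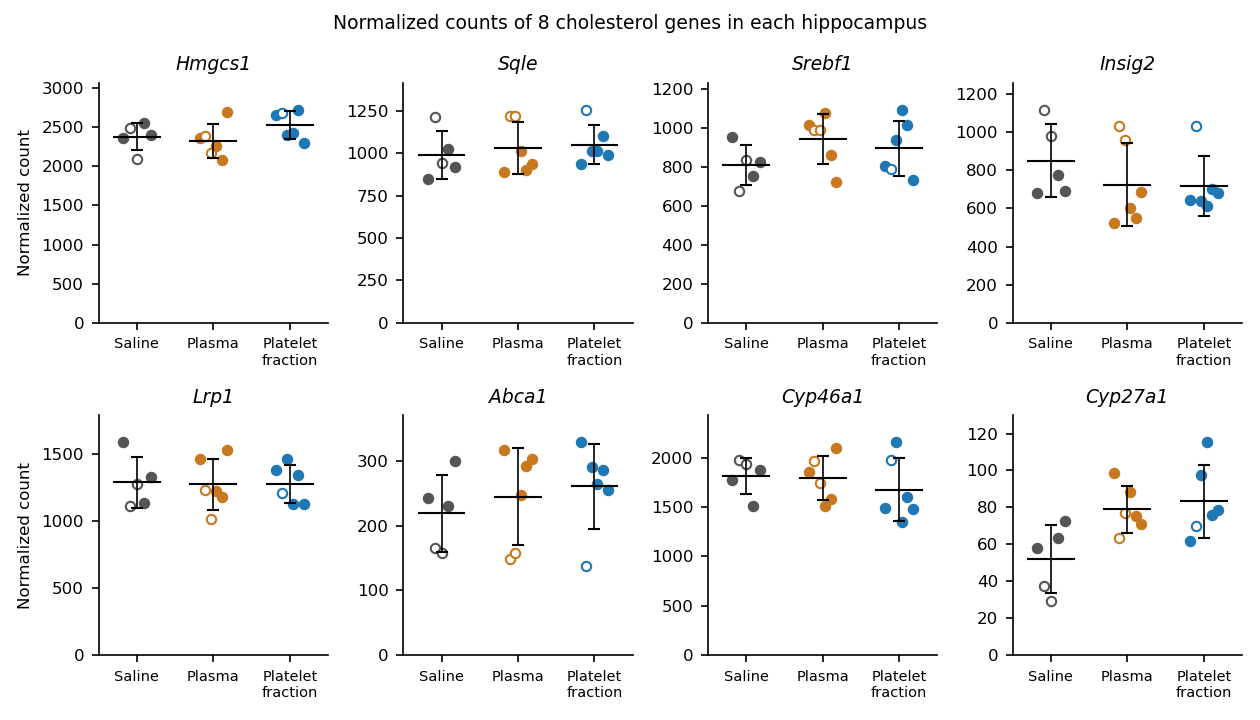
Normalized counts of 8 members in each hippocampus by group; the line is the mean, the bar the SD, and open points are the 5 libraries that stood apart. Cyp27a1 is higher in both treated groups (79.0 and 83.2) than with saline (52.0), and the open points lie high for Insig2 and low for Abca1.

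Cyp27a1 was followed in detail as the member called in both comparisons with saline. It stood at 57.7, 37.4, 29.1, 63.4 and 72.5 normalized counts in saline mice (52.0 ± 18.2, SD, n = 5). With the young plasma preparation it stood at 63.3 at the lowest, 76.2 at the median and 98.5 at the highest (79.0 ± 12.6, n = 6). With the young platelet fraction these were 61.7, 77.2 and 115 (83.2 ± 19.9, n = 6). In each treated group 4 of 6 values were above all saline values, and the groups overlapped through saline mice 7155 and 7596. The log2 difference was 0.66 ± 0.23 (SE, interval 0.16 to 1.15, 1.57-fold, adjusted p = 1.00, limma) for plasma and 0.71 ± 0.24 (interval 0.18 to 1.23, 1.63-fold, adjusted p = 0.998, limma) for the platelet fraction. The unadjusted limma P = 0.0135 and P = 0.0122 passed the threshold, and two-sided exact permutation tests gave p = 0.0152 and p = 0.0173. The treatments differed from each other by 0.05 (interval -0.31 to 0.41).

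The 2 lowest saline values of Cyp27a1, 37.4 and 29.1, belonged to mice 7146 and 7152, which stood apart. Without the 5 libraries that stood apart, the differences were 0.36 (interval -0.06 to 0.78) and 0.37 (interval -0.10 to 0.84), so the call was lost in both comparisons. It was kept when any single library was left out, with differences of 0.47 to 0.79 for plasma and 0.52 to 0.84 for the platelet fraction. Summed oligodendrocyte and ependymal markers were also higher at the median in both treated groups, with ranges that overlapped saline. The 13 oligodendrocyte markers, all at 10 or more in every hippocampus, summed to 41551 to 81208 (median 62544) with saline, 53395 to 118991 (median 87239) with plasma and 65688 to 105743 (median 95839) with platelets. None of the 6 ependymal markers was at 0 in all libraries of a group. They summed to 108 to 175 (median 130), 121 to 396 (median 229) and 79.1 to 464 (median 321) in the same order. Terms were fitted for the mean log2(normalized count + 1) of the oligodendrocyte or ependymal markers kept for testing, not for these sums. With the oligodendrocyte term the Cyp27a1 differences were 0.31 (interval -0.21 to 0.83) and 0.20 (interval -0.53 to 0.94). With the ependymal term they were 0.39 (interval -0.19 to 0.98) and 0.49 (interval -0.09 to 1.08), so neither term kept the call. Red cell markers summed to 84.6 to 173, 84.4 to 171 and 135 to 956, and their part in the result was not tested. The other lists overlapped between groups as well: microglia 5017 to 5902, 4489 to 6462 and 4621 to 5462, astrocytes 44790 to 57617 and endothelium 2370 to 4081 over all hippocampi, and choroid plexus 3448 to 96810.

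The young platelet fraction and the young plasma preparation were also compared with each other, on one scale set by the shared saline libraries. None of 35 members passed the threshold, against 1.9% of the 13693 genes tested (0.869% higher and 1.03% lower with platelets), and none did with edgeR or DESeq2, with 0 members at an unadjusted P under 0.05 in any of the 3 tools. The interval lay within 1.5-fold for 33 of 35 members, against 66.2% of all genes, and the median difference was -0.03. The smallest P was that of Nr1h2 (658 ± 86.2 with plasma and 585 ± 59.2 with platelets, n = 6 each), which differed by -0.17 (interval -0.38 to 0.05, P = 0.114 with limma, exact permutation p = 0.11). Hmgcs1 differed by 0.11 (interval -0.04 to 0.27), Lss by -0.16 (interval -0.38 to 0.06), Tm7sf2, a sterol reductase, by -0.15 (interval -0.39 to 0.09) and Lcat, which esterifies cholesterol on lipoproteins, by -0.15 (interval -0.37 to 0.06). Srebf2 differed by -0.11 (interval -0.28 to 0.07), with 4 of 6 platelet values below all plasma values. Mylip differed by -0.11 (interval -0.39 to 0.18) and Stard4 by 0.19 (interval -0.18 to 0.57), the latter being the top of the range of the members. Leaving out plasma mouse 7159 gave a call to Nr1h2 (-0.22), and leaving out plasma mouse 7594 gave one to Hmgcs1 (0.16).

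Genes next to the pathway were counted in the same way. Of 12 genes of fatty acid synthesis, 0 passed the threshold with limma in any of the comparisons, and Acsl3, the long-chain acyl-CoA synthetase, came closest in microglia at an unadjusted P of 0.0348, where the threshold was 0.01. Of 20 further genes of sterol handling, 18 were tested. Apod, a lipocalin that binds sterols and is made by oligodendrocytes and astrocytes among others, was higher with both treatments at the unadjusted threshold only. It stood at 1073 ± 143 with saline and 1540 ± 454 with plasma (log2 difference 0.49, interval 0.14 to 0.84, adjusted p = 1.00, limma). For platelets it stood at 1078 ± 144 with saline and 1697 ± 289 with treatment (0.65, interval 0.39 to 0.91, adjusted p = 0.785, limma). Both comparisons used the same saline mice, and summed oligodendrocyte markers were also higher at the median in both treated groups. Vldlr, a lipoprotein and reelin receptor, was lower with platelets (626 ± 58.9 to 545 ± 38.5, log2 difference -0.20, interval -0.38 to -0.01, adjusted p = 0.998, limma). These were 1 of 18 genes with plasma, against 3.35% of all genes, and 2 of 18 with platelets, against 3.87%, while 0 passed between the treatments or in microglia with limma.

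Spread within groups was then set side by side for the members and all genes across hippocampi, without matching for level. The median SD of the members around their group means was 0.19 on the log2 scale, from 0.11 for Hsd17b7 to 0.45 for Abca1, against 0.28 over all genes tested. The 5 libraries that stood apart were separate from the other 12 for 3 of the 35 members (8.57%), against 7.23% of all genes. Insig2 stood at 961 to 1118 in the 5 and at 525 to 777 in the 12. Abca1 stood at 137 to 165 against 230 to 328. Abcg1 stood at 736 to 865 against 972 to 1297. High Insig2 and low levels of both exporters were thus found together in these 5 hippocampi, which came from all 3 treatment groups. The share of separate members was close to that of all genes, so the split does not set the members apart from other genes. These libraries were chosen from other genes of the same RNA, so the values are a description, and choroid plexus markers ranged from 3448 to 86825 in the 5 and from 10663 to 96810 in the 12.

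**Figure D4:**
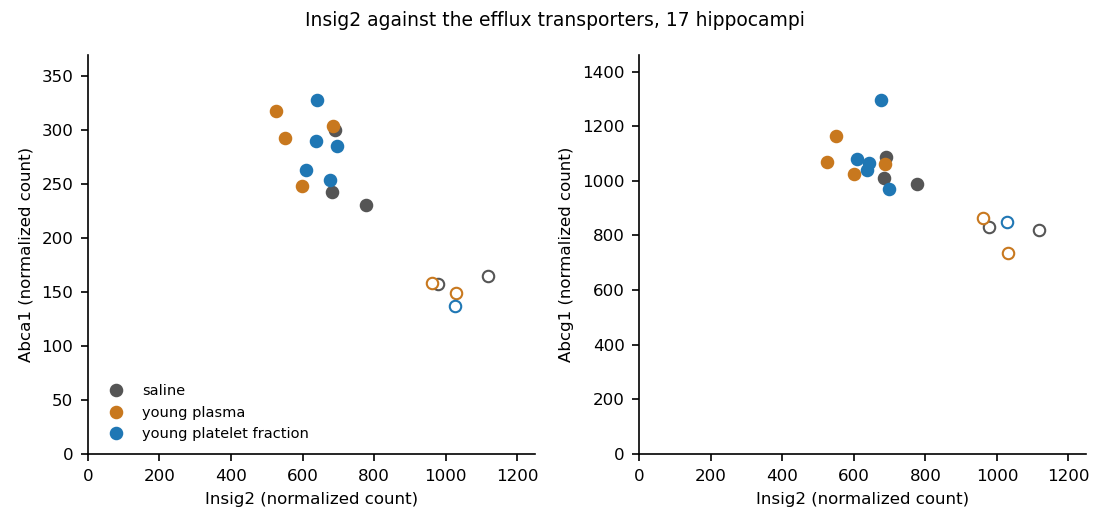
Insig2 against Abca1 and Abcg1 in 17 hippocampi, in normalized counts on one scale; open points are the 5 libraries that stood apart. The open points have Insig2 at 961 or more, Abca1 at 165 or less and Abcg1 at 865 or less.

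Within the other 12 hippocampi, deviations from group means were correlated for the 595 pairs of members. None passed an adjusted p of 0.05 (two-sided exact permutation test, 17280 permutations, smallest adjusted p 0.207). The 153 pairs of synthesis enzymes had a median r of 0.10, and 52.9% were positive, against a median of -0.0016 and 49.8% positive over all gene pairs. Lss and Tm7sf2 had r = 0.81 (exact permutation p = 0.000868, adjusted p = 0.207) and rho = 0.84 (p = 0.00174, adjusted p = 0.258), and r = 0.80 without the 2 samples farthest from the median of Lss. Lrp1 and Nr1h2 had r = 0.89 (exact permutation p = 0.00139, adjusted p = 0.207) and rho = 0.91 (p = 0.00127, adjusted p = 0.258), and r = 0.85 without 2. The consecutive enzymes Cyp51, the lanosterol demethylase, and Msmo1 had r = 0.82 (exact permutation p = 0.00475, adjusted p = 0.403) but rho = 0.59 (p = 0.0815, adjusted p = 0.816), and r = 0.72 without 2. Insig2 did not follow the exporters within these 12, with r = -0.24 for Abca1 (exact permutation p = 0.503, rho = -0.25, p = 0.487, r = -0.34 without 2).

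PF4 was compared with saline in isolated microglia to ask whether the platelet chemokine alone altered their cholesterol genes. None of the 33 members tested passed the threshold (unadjusted P of 0.01, limma), against 0.389% of the 11320 genes tested (0.221% higher and 0.168% lower). By limma, edgeR and DESeq2 alike, 0 members had an unadjusted P under 0.05, with smallest P of 0.0644, 0.132 and 0.123. Nr1h3 and Cyp46a1 were not tested, since they reached a normalized count of 10 in too few libraries. The median difference was -0.08, against 0.03 over all genes, and the interval lay within 1.5-fold for only 2 of 33 members, against 2.60% of all genes. Changes of that size were therefore not detectable for most members at this replication. With 3 libraries against 4, the smallest exact permutation p that can be reached is 0.0286.

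The spread between libraries set these limits. The median SD of the members around their group means was 0.88 on the log2 scale, against 1.08 over all genes and 0.19 for the same genes in hippocampus. Of the 35 members, 13 were under a normalized count of 10 in at least 1 of the 7 libraries and 22 were at 10 or more in all. In hippocampus all 35 were at 10 or more in every library. Lss stood at 505, 118 and 2.14 in saline and at 0, 1163, 607 and 2.84 in PF4 microglia. Sqle stood at 1151, 1.23 and 0.714 and at 41.9, 492, 0.817 and 627. Both genes were near 0 in libraries of either treatment. Sqle was highest in saline library 2 and PF4 libraries 2 and 4, the libraries high in choroid plexus transcripts. Lss did not follow that split, at 607 in PF4 library 3 and 2.84 in PF4 library 4. The cells that these reads came from were not tested.

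**Figure D5:**
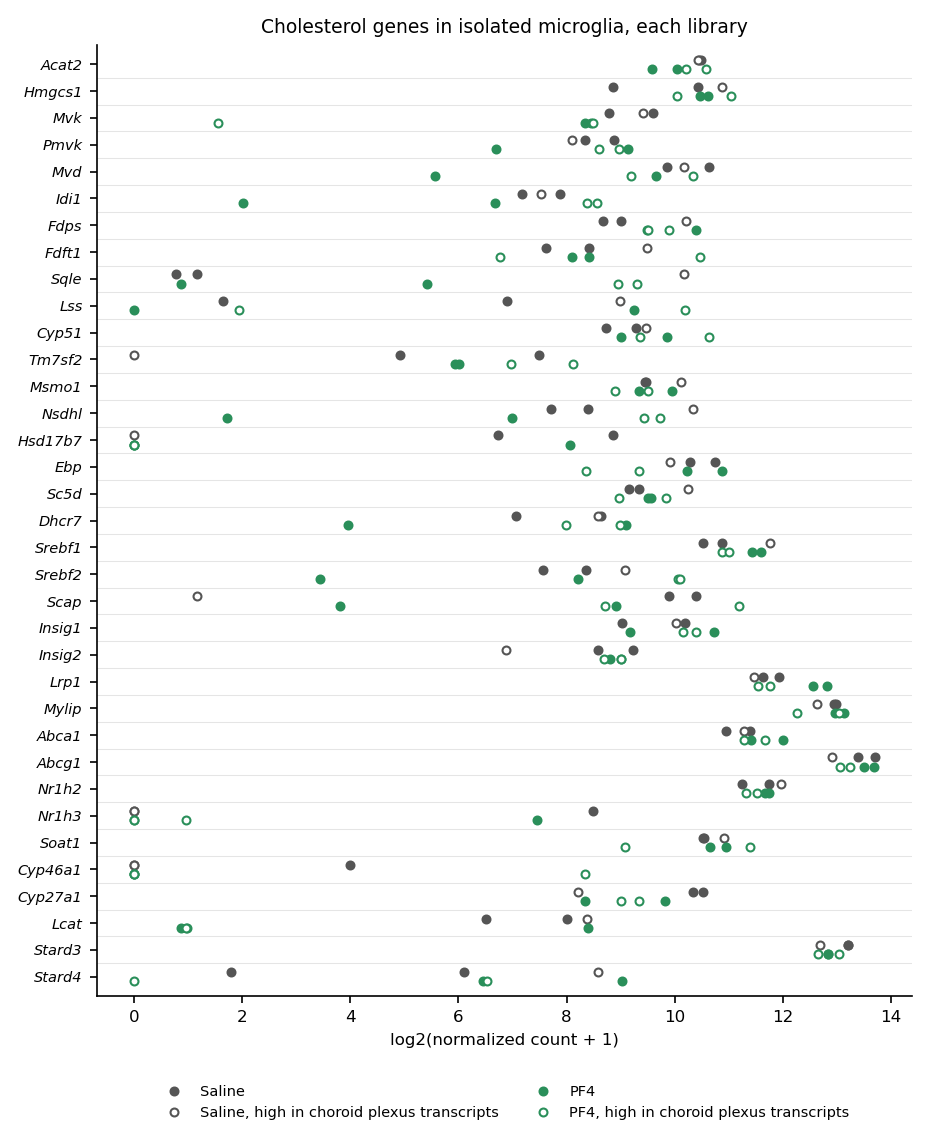
Members in each microglia library on the log2(normalized count + 1) scale, saline (3 libraries) and PF4 (4 libraries); open points are the 3 libraries high in choroid plexus transcripts. Mylip, Abcg1, Stard3, Nr1h2 and Abca1 hold a narrow range, whereas Sqle, Lss and Hsd17b7 fall to or near 0 in some libraries of both groups.

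Stard3, Nr1h2, Abca1, Acat2, Mylip and Abcg1 varied least between microglia libraries among the members tested, with SDs around their group means of 0.23 to 0.33 on the log2 scale. Abcg1 stood at 7734, 13347 and 10807 with saline and at 13218, 8490, 11610 and 9698 with PF4 (difference 0.03, interval -0.49 to 0.56). Mylip stood at 6347, 8146 and 7932 and at 8040, 4907, 8953 and 8376 (difference -0.01, interval -0.55 to 0.53). Abca1 stood at 2503, 2681 and 1964 and at 4105, 2502, 2708 and 3246, so 3 of 4 PF4 values were above all saline values (difference 0.38, interval -0.21 to 0.98, P = 0.179 with limma, exact permutation p = 0.2). Lrp1 stood at 2824, 3157 and 3908 and at 7226, 2971, 6038 and 3478 (difference 0.50, interval -0.25 to 1.24, P = 0.167 with limma, exact permutation p = 0.314). Stard3 differed by -0.19 (interval -0.64 to 0.26).

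Several synthesis genes had wider intervals. Hmgcs1 stood at 1881, 1372 and 461 with saline and at 1419, 1050, 1562 and 2117 with PF4 (difference 0.49, interval -0.63 to 1.61). Mvk, the mevalonate kinase, stood at 679, 776 and 441 and at 351, 1.93, 323 and 358, so every PF4 value was below every saline value (difference -2.56, interval -6.32 to 1.20, P = 0.16 with limma, exact permutation p = 0.2). PF4 library 2, at 1.93, lay far below the other PF4 libraries. Mvd, which decarboxylates mevalonate diphosphate, stood at 1151, 1596 and 923 and at 46.4, 1287, 800 and 582 (difference -1.54, interval -3.79 to 0.71, P = 0.159 with limma, exact permutation p = 0.257). Tm7sf2 stood at 0, 178 and 29.3 and at 60.1, 276, 63.7 and 125 (difference 2.63, interval -1.98 to 7.23, P = 0.231 with limma, exact permutation p = 0.229). Dhcr7 and Srebf2 differed by -0.58 (interval -3.63 to 2.47) and -0.38 (interval -3.81 to 3.05), and their lowest values, 14.5 and 9.89, were both in PF4 library 1. The other synthesis enzymes differed by -3.18 for Hsd17b7, which held 0 reads in 3 of 4 PF4 libraries, to 0.55 for Cyp51, apart from Sqle at 2.10 (interval -4.51 to 8.70).

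Lcat had the smallest P of the members in microglia. It stood at 331, 255 and 90.0 with saline, at 336 in PF4 library 1 and at 0.964, 0.817 and 0.947 in the other PF4 libraries (difference -4.83, interval -10.01 to 0.35, P = 0.0644 with limma, exact permutation p = 0.143). Without PF4 library 1 the difference was -6.70 and passed the threshold. Insig2 stood at 117, 596 and 381 and at 448, 415, 513 and 512 (difference 0.65, interval -0.97 to 2.27), so the PF4 values lay within the saline range. Cyp27a1 stood at 297, 1467 and 1288 and at 323, 643, 901 and 515 (difference -0.57, interval -2.05 to 0.92), also within it. Scap, Srebf1, Insig1 and Soat1 differed by 1.00, 0.17, 0.36 and -0.14, and Nr1h2 and Stard4 by -0.08 and 0.00. Nr1h3 was at 0 or under 1 in 5 of the 7 libraries and reached 359 in saline library 3 and 175 in PF4 library 3. Cyp46a1 reached 15.0 in saline library 4 and 325 in PF4 library 4 and was at 0 in the other 5. The libraries high in choroid plexus transcripts were 1 of 3 with saline and 2 of 4 with PF4. Oligodendrocyte markers summed to 7210 to 34424 with saline and to 5135 to 198381 with PF4. No member passed the threshold with a term for oligodendrocyte markers, with one for choroid plexus markers or without those 3 libraries, all with limma. The median log2 difference of the members was -0.08 with all libraries and no such term, and -0.11, -0.15 and 0.03 in these fits.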

How the data were processed

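RNA of whole hippocampus or isolated microglia was sequenced in 24 libraries, 17 hippocampal and 7 microglial, grouped by their deposited labels. Per the submitters' processing notes, the authors used STAR, RSEM and DESeq2 with mm10, and the deposited signal is a normalized count, in which each library is scaled by its own size factor. The labels name a strand-specific poly(A) kit and the methods a modified Smart-Seq2 protocol, so whether counting used strand is not settled, and overlapping genes are uncertain to that extent. The authors' comparison columns (mean, log2 fold change, error, statistic and p-values) were not used.

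Values were whole multiples of one step per library within 0.01 read, which gave back the whole reads behind 100% of values. A limma 3.58.1 trend fit (R 4.3.3) was made on log2 normalized counts after adding 1, for all genes reaching 10 in at least 5 libraries of hippocampus or 3 of microglia. Thresholds were an unadjusted P of 0.05 in hippocampus and 0.01 in microglia, those of the study, with Benjamini-Hochberg adjustment over all genes. The treated hippocampi of both tables were rescaled by their common saline libraries before they were compared. Exact permutation tests of single genes were two-sided, and intervals are 95%. The same-numbered microglia libraries 2, 3 and 4 had correlations of deviations of 0.17, 0.061 and 0.0017. Pairs with different numbers ranged from -0.18 to 0.17, so these values cannot settle whether the numbers mark pairs. No pair of libraries agreed within sampling noise.

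Values per sample are given for each member called, for that with the smallest p of each role in each comparison, and for Hmgcs1, Sqle, Dhcr7, Srebf2, Lrp1, Abca1, Cyp46a1 and Cyp27a1. The members, lists, marker lists and alternatives were chosen with earlier results of these data known. The scripts were tested on simulated data. Alternatives were DESeq2 1.42.0 and edgeR 4.0.16 on the reads so recovered, scaling by TMM or library totals, pseudocounts of 0.5 and 5, a low-value filter of 50 or none, marker terms, leaving out libraries, one fit of all hippocampi and a replicate block. Leaving out the microglia libraries high in choroid plexus transcripts was chosen after seeing the data.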

Additional observations from a re-analysis of the deposited data

Results flagged for a closer look

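Of 140 groups of member values with 4 to 6 libraries, 11 (7.86%) held a highest or lowest value whose gap to the next, divided by the range of its group, was above Dixon's 95% critical value, and chance gives about 1 in 20 such groups. All values are normalized counts, and none was explained or tested further. In saline hippocampi, Stard4 reached 174 in mouse 7146, with the next value at 123. With the young plasma preparation, Mvk fell to 168 in mouse 7159, with the next at 240, and Srebf2 reached 955 in mouse 7144, with the next at 818. With the young platelet fraction, Mvk was lowest at 182 in mouse 7145 (next 228), and mouse 7148 was highest for both Fdft1 at 1536 (next 1329) and Insig2 at 1033 (next 701). Mouse 7148 is 1 of the 5 hippocampi that stood apart.

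In PF4 microglia, 5 of the 11 values were found. Mvk was lowest at 1.93 in library 2, with the next at 323. Hsd17b7 reached 268 and Nr1h3 175 in library 3, where the next values of other libraries were 0 and 0.947. Cyp46a1 reached 325 in library 4, against 0 in the others, and Lcat reached 336 in library 1, against 0.964 at most in the others.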

How the results depend on the processing

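No member passed an adjusted p of 0.05 in any main comparison, and the P thresholds of the calls are unadjusted. With 3 and 4 microglia libraries whose members varied by a median SD of 0.88 on the log2 scale, intervals were wide. The count of members called with young plasma, 1 in the report, was 0 with the oligodendrocyte term and 0 with the ependymal term, and 1 to 2 when single libraries were left out. With the platelet fraction it was 0 without the 5 libraries that stood apart and 1 to 3 when single libraries were left out. Between the treatments and in microglia, where the report gives 0, it was 0 to 1 when single libraries were left out. Without the 5 libraries that stood apart, the 1 member called with plasma was Insig2 (-0.29), not Cyp27a1, and with the oligodendrocyte and ependymal terms the 1 member called with platelets was Soat1 (0.40 and 0.28). The sample labels name no pairs in hippocampus, and no block was fitted there. The mice that stood apart have close numbers (7146, 7147, 7148, 7150 and 7152). Mouse 7151, whose number lies among them, did not stand apart (first component 0.228). A block by mouse number was not tested. With a replicate block in microglia 0 members were called and the median was -0.05. PF4 library 1, which has no saline library of its number, adds nothing to that fit. The median difference of the members in microglia turned from negative to positive without the libraries high in choroid plexus transcripts. The saline levels were separate for 28 members with median-of-ratios scaling and 27 with TMM, which moved the median of all genes by 0.28 and 0.45.

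Directions of single members turned for differences that were not called, and the cause was not tested. For young plasma against saline, Hmgcs1 was 0.028 with either marker term, Lrp1 0.0044 with the oligodendrocyte term, 0.019 with the ependymal term and 0.0016 without the 5, Cyp46a1 0.12, 0.12 and 0.027 in that order, and Abca1 -0.0070 with the oligodendrocyte term. For platelets against saline, Srebf2 was 0.047 and 0.045 and Mylip 0.23 and 0.070 with the oligodendrocyte and ependymal terms, Cyp46a1 0.080 with the former, Lrp1 0.034 with the latter, and Dhcr7 -0.0020 with edgeR. Between the treatments, Lrp1 was -0.0073 with TMM, -0.011 with library totals, -0.015 with edgeR, -0.0089 with DESeq2 and -0.072 without the 5, which also gave Dhcr7 0.025 and Abca1 -0.033. In microglia, edgeR and DESeq2 gave Sqle -0.37 and -0.40, Dhcr7 0.14 and 0.13, and Srebf2 0.81 and 0.80, the replicate block gave Dhcr7 0.61 and Srebf2 1.12, the oligodendrocyte term gave Srebf2 0.025, and Tm7sf2 was -0.23 without the 3 libraries high in choroid plexus transcripts.

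When single libraries were left out, signs turned within these ranges: for plasma, Cyp46a1 -0.085 to 0.027 and Lrp1 -0.073 to 0.061; for platelets, Dhcr7 -0.069 to 0.11, Lrp1 -0.067 to 0.061 and Srebf2 -0.054 to 0.034; between them, Abca1 -0.033 to 0.27, Cyp27a1 -0.050 to 0.13, Lrp1 -0.063 to 0.055 and Sqle -0.025 to 0.080; in microglia, Dhcr7 -1.11 to 0.61, Hmgcs1 -0.11 to 0.90, Insig2 -0.021 to 1.15 and Srebf2 -1.10 to 1.12.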
